A study of Mus musculus with 8 samples.

Results

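The Myc, Max and Mxd network was followed in mouse CD8+ T cells treated with GC7. Its 10 genes were fixed as a list of symbols, without a threshold on their values: Myc, Max, Mxd1, Mxd3, Mxd4, Mxi1, Mnt, Mlx, Mlxip and Mga. Each was matched to 1 Ensembl gene among the 55536 genes of the count tables, and all 10 were among the 11189 genes that passed the filter on low counts. The fewest counts of a network gene in any library were 430. The libraries hold mRNA of OT-I CD8+ T cells of C57BL/6 mice, whose single transgenic antigen receptor recognises SIINFEKL, a peptide of ovalbumin, and which, by the study's methods, came from the lymph nodes of mice that lack Rag1. All cells were activated with 100 nM of the peptide for 2 days, washed, and expanded in 20 ng/ml recombinant human IL-2 for 2 more days. For these last 2 days the 4 GC7 libraries received 10 µM GC7, and the 4 Mock libraries received acetic acid, the vehicle. GC7 inhibits deoxyhypusine synthase, which carries out the first step of hypusination, the modification that makes the translation factor eIF5a mature. It is a spermidine analogue, so it may also act on proteins other than eIF5a, and it was given to activated cells rather than from the start of activation.

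Max is the hub of this network of basic helix-loop-helix leucine zipper proteins. Myc, which binds DNA as a dimer with Max at E-boxes (CACGTG and close variants), activates genes of growth, ribosome production and metabolism, whereas the Mxd proteins, Mxi1 and Mnt take the same partner and the same sites and recruit corepressors. Mga carries Max into a Polycomb-like repressor complex, and Mlx with Mlxip, also called MondoA, forms a parallel arm that responds to sugar phosphates. In CD8+ T cells, Myc is switched on by the antigen receptor, is maintained by IL-2 and drives the growth of activated cells.

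Total counts were 20045041 to 25284730 in Mock libraries and 17528776 to 23449164 in GC7 libraries. Log2 values correlated at 0.987 to 0.997 between libraries of a group, and every pair of libraries of a group differed by more than sampling noise (chi-square per degree of freedom 2.60 to 35.6). The study calls the libraries biological replicates, but the sample labels do not say that they came from separate animals, so p-values measure the spread between these libraries. Mock library 2 and GC7 library 3 stood apart for several genes and are named where they matter. Cd8a (680 to 743 CPM in Mock, 940 to 1003 CPM in GC7) and the Cd3 genes marked the cells as T cells. Of the B cell genes, Ms4a1 and Pax5 had no counts in any library, while Cd79b passed the filter on low counts. Summed levels of the marker lists were 7260 to 8693 CPM in Mock and 4959 to 6548 CPM in GC7 for 9 CD8 T cell genes (5 of them lower and 2 higher at an adjusted p under 0.01, with most of the sum and of its fall in Gzmb, at 3968 to 4817 CPM in Mock and 1901 to 3440 CPM in GC7), 93.1 to 97.5 and 75.6 to 85.0 CPM for 3 CD4 T cell genes (nearly all Zbtb7b), 7.72 to 10.4 and 4.91 to 6.06 CPM for 6 B cell genes, 1.96 to 2.67 and 1.90 to 3.19 CPM for 3 natural killer cell genes, 8.81 to 11.5 and 6.10 to 9.82 CPM for 9 myeloid genes, and 51.6 to 56.3 and 30.6 to 32.4 CPM for 6 stromal and endothelial genes (nearly all Pecam1, which T cells also make). Most of the B cell sum was Cd79b (6.06 to 9.48 CPM in Mock, 3.85 to 5.01 CPM in GC7). Most of the myeloid sum was Cd68 (8.15 to 10.7 CPM in Mock, 5.60 to 9.21 CPM in GC7). Most of the natural killer cell sum was Eomes (1.91 to 2.56 CPM in Mock, 1.80 to 2.53 CPM in GC7). Of the other defining markers, Cd4, Csf1r and Ncr1 stayed under 0.5 CPM, and Siglech and Cdh5 had no counts.

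GC7-treated cells had less mRNA of Myc and of 3 of its 5 antagonists at the E-box, together with less Mlx and more Mlxip, while Max stayed close to its Mock level. Of the 10 genes, 5 were lower at an adjusted p under 0.01 (Myc, Mxd3, Mxd4, Mxi1 and Mlx), against 23.5% of all tested genes, and 1 was higher (Mlxip), against 23% of all tested genes. Mxi1 alone fell by more than 2-fold, a class that held 5.31% of tested genes as decreases and 3.17% as increases. Libraries of the groups did not overlap for 6 genes that were lower in every GC7 library (27.5% of tested genes did this) and for 1 that was higher in every GC7 library (28.1%). The median log2 fold change over the 10 genes was -0.35, and over all tested genes it was 0.02. Tests are edgeR's quasi-likelihood F test with Benjamini-Hochberg adjustment over all tested genes, and levels are CPM (a gene's counts scaled to a fixed library size) after scaling by TMM factors. Such values are relative to all mRNA of a library, so fewer cells of a kind and less RNA per cell cannot be told apart. With library totals in place of TMM factors the median of all genes moved to 0.11 and the split of all calls from 2635 lower and 2579 higher to 2056 lower and 3346 higher, while the same 5 network genes were lower and the same 1 was higher.

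**Figure D1:**
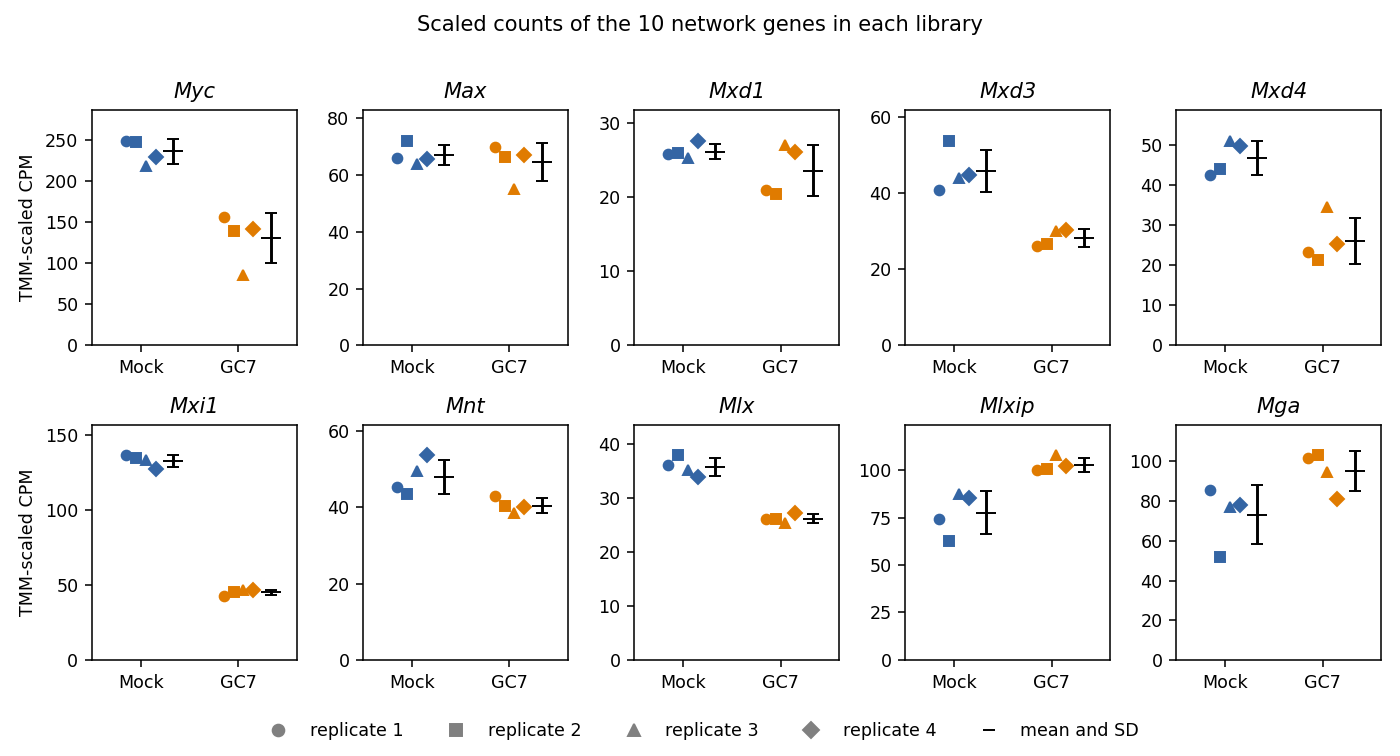
TMM-scaled CPM (vertical axes, each from 0) of the 10 network genes in the 4 Mock libraries (blue) and the 4 GC7 libraries (orange), with the replicate number as the symbol and the mean and SD of each group in black. The groups are apart for Myc, Mxd3, Mxd4, Mxi1, Mnt, Mlx and Mlxip, GC7 library 3 is the lowest for Myc and the highest of its group for Mxd4, and Mock library 2 is the lowest for Mga.

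The promoters of several network genes hold the letters that the network itself reads, and these short stretches are shown because Myc, Mxd and Mlx dimers share them. RefSeq windows on GRCm38.p6, from 250 bases before to 50 bases after an annotated start, were found for 9 of the 10 genes, all but Myc. CACGTG, which reads the same on both strands, was in the windows of 4 of these 9 genes (Max, Mxd4, Mnt and Mlx), against 8.09% of the 27025 genes with such a window and 12.2% of the tested genes with one. The E-box is in capitals in these lines, each 5′ to 3′ on the strand of the gene.
Max, chr12:76962234-76962263, minus strand: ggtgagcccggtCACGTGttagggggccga
Mxd4, chr5:34187912-34187941, minus strand: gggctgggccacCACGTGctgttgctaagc
Mnt, chr11:74830789-74830818, plus strand: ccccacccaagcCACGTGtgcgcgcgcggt
Mlx, chr11:101087238-101087267, plus strand: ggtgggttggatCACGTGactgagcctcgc
The windows of Mxd1, Mxd3, Mxi1, Mlxip and Mga held no CACGTG. Of the 4 genes with it, Mxd4 and Mlx were lower and Max and Mnt did not pass the test, and of the 5 without it, Mxd3 and Mxi1 were lower and Mlxip was higher. Of the 1019 tested genes with it, 242 were lower and 225 were higher. Among the tested genes whose windows lacked it, 1719 were lower and 1676 were higher. A shorter run, ACGTG, searched on both strands, is the core shared by E-boxes (each CACGTG contains it on both strands) and by the element of hypoxia-inducible factors. Counting matches inside E-boxes, it occurred in 21.8% of the genes with a window and 30.6% of the tested genes with one. It was in 6 of the 9 network genes with one. Outside an E-box it was in the window of Mga, whose mean was higher after GC7, and in 2 of the 3 windows of Mxi1. The share of all genes with a match outside an E-box was not counted, and a gene with more windows has more chances of a match. Only the search for CACGTG had been planned. The 2 matches of Mxi1 lay in different windows of alternative starts, and these windows overlap (chr19:53329163-53329462 and chr19:53329445-53329744). The second match lay beyond the end of the first window, so downstream of the first of these 2 starts. The matches are shown here in order along the chromosome, with ACGTG in capitals.
Mxi1, first window, chr19:53329335-53329363, plus strand: cctcggcacccgACGTGcactggcggggg
Mxi1, second window, chr19:53329658-53329686, plus strand: tgcggatgatcaACGTGcagcgcctgctg
A match is a description of the letters only, and no binding was measured.

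Max, the shared partner of Myc, Mxd, Mnt and Mga proteins (chromosome 12, 76937269 to 76962201, minus strand, GRCm38), was at 66.0, 72.1, 64.0 and 65.8 CPM in Mock libraries 1 to 4 and at 69.9, 66.2, 54.9 and 67.2 CPM in GC7 libraries 1 to 4. The groups overlapped, and GC7 library 3 was the lowest of the 8. The log2 fold change was -0.05 (95% interval -0.22 to 0.12, edgeR adjusted p = 0.587), so a change of Max in either direction was small if present. Its sign was not stable, with 0.043 under library totals and 0.023 without GC7 library 3. Pseudogenes with 245 matched bases at over 90% identity exist for Max, and none of them passed the filter.

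Myc (chromosome 15, 61985391 to 61990374, plus strand) was the most abundant network gene per length in every library. Its mRNA was at 249.6, 248.5, 218.6 and 229.9 CPM in Mock libraries 1 to 4 and at 156.6, 139.1, 86.2 and 141.6 CPM in GC7 libraries 1 to 4. Every GC7 library was below every Mock library, and GC7 library 3 was well below the other three. The mean fell from 236.6 ± 15.0 CPM to 130.9 ± 30.8 CPM (SD, n = 4 each), which is -0.85 on the log2 scale (SE 0.14, edgeR adjusted p = 2.67e-04). Without GC7 library 3 the log2 fold change was -0.69 (adjusted p = 1.61e-05). Of the other Myc genes, Mycn, which encodes a close paralogue with the same partner, fell from 28.0 ± 2.6 CPM to 17.2 ± 3.8 CPM (log2 fold change -0.70, edgeR adjusted p = 0.00105). Bmyc, a further relative, was at 3.85 CPM in Mock and 4.62 CPM in GC7 (log2 fold change 0.26, adjusted p = 0.138). Mycl was too low to test, at 1.16 CPM in Mock and 0.71 CPM in GC7, and Mycs had no counts.

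Mxi1 encodes a repressor of the Mxd family that takes Max from Myc, and it is also known as a target of hypoxia-inducible factors. It lies on chromosome 19 (53310518 to 53375810, plus strand) and showed the largest change of the network. Mock libraries 1 to 4 had 136.5, 134.5, 133.2 and 127.2 CPM, and GC7 libraries 1 to 4 had 42.7, 45.1, 46.3 and 46.5 CPM. Both groups were tight, with a gap between them many times the spread inside either. Its mean was 2.94-fold lower after GC7 (log2 fold change -1.56, SE 0.06, edgeR adjusted p = 7.60e-10), and it lay between -1.59 and -1.53 when any 1 library was left out. The gene Gm10197 on the opposite strand, which shares 2.84% of the exon bases of Mxi1, had no counts, and Gm13735, a pseudogene that matches it over 679 bases at 90.4% identity, did not pass the filter.

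Mxd3 and Mxd4, repressors of the same family, fell as well. Mxd3 (chromosome 13, 55325168 to 55329823, minus strand), best known from proliferating cells, was at 40.8, 53.8, 43.9 and 44.7 CPM in Mock libraries 1 to 4 and at 26.0, 26.5, 30.1 and 30.4 CPM in GC7 libraries 1 to 4. The groups did not overlap, and Mock library 2 was the highest (log2 fold change -0.70, SE 0.09, edgeR adjusted p = 4.73e-05). Its exons share 105 bases, 4.43% of their length, with Prelid1 on the opposite strand, a more abundant gene that also fell (719 to 495 CPM, log2 fold change -0.54, edgeR adjusted p = 2.59e-04). Where reads of such overlaps were counted is not given in the sources used here, so the reads of the shared stretch cannot be told apart.

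Mxd4 (chromosome 5, 34173883 to 34187720, minus strand), a family member linked to resting and differentiated cells, was at 42.4, 44.0, 51.0 and 49.8 CPM in Mock libraries 1 to 4. In GC7 libraries 1 to 4 it was at 23.3, 21.3, 34.4 and 25.1 CPM. GC7 library 3, the lowest for Myc, was the highest of its group for Mxd4, yet still below every Mock library. The log2 fold change was -0.85 (SE 0.13, edgeR adjusted p = 1.30e-04), and -1.0 without that library, the furthest from 0 of the 8 values with 1 library left out.

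Mxd1 and Mnt, the other antagonists of Myc, did not pass the test. Mxd1 (chromosome 6, 86647042 to 86669161, minus strand), the founding Mxd gene, was at 25.9, 25.9, 25.3 and 27.7 CPM in Mock libraries 1 to 4 and at 20.9, 20.4, 27.0 and 26.1 CPM in GC7 libraries 1 to 4. GC7 libraries 1 and 2 lay below all Mock libraries and GC7 libraries 3 and 4 lay among them (log2 fold change -0.15, 95% interval -0.36 to 0.06, edgeR adjusted p = 0.209). Mnt (chromosome 11, 74830920 to 74845725, plus strand), the broadly expressed antagonist, was at 45.4, 43.5, 49.5 and 53.7 CPM in Mock libraries 1 to 4 and at 43.0, 40.2, 38.6 and 40.1 CPM in GC7 libraries 1 to 4. Its groups were adjacent without overlap, and its log2 fold change of -0.25 (95% interval -0.41 to -0.08) missed the threshold in edgeR (adjusted p = 0.0147). It passed without Mock library 2 (adjusted p = 0.00245) and in DESeq2 (adjusted p = 0.00611).

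Mga, the largest protein of the network and the scaffold of its Polycomb-like complex (chromosome 2, 119897228 to 119969581, plus strand), had a higher mean after GC7 without passing the test. Its mRNA was at 85.6, 52.0, 77.2 and 78.0 CPM in Mock libraries 1 to 4 and at 101.5, 103.1, 94.4 and 81.3 CPM in GC7 libraries 1 to 4. Mock library 2 was far below the rest, and GC7 library 4 lay below Mock library 1, so the groups overlapped. The log2 fold change was 0.38 (95% interval 0.09 to 0.66, edgeR adjusted p = 0.0258), and 0.24 without Mock library 2. Short stretches of Mga exons, of 200 to 209 bases, match other genes at 90% or more, some of which passed the filter, so a small part of its counts is uncertain.

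Mlx and Mlxip, which bind DNA together, moved in opposite directions. Mlx (chromosome 11, 101087277 to 101092207, plus strand), the shared partner of the Mondo proteins and of some Mxd proteins, was at 36.0, 37.8, 35.0 and 33.8 CPM in Mock libraries 1 to 4 and at 26.1, 26.0, 25.3 and 27.1 CPM in GC7 libraries 1 to 4. The groups were well apart, and the log2 fold change was -0.45 (SE 0.07, edgeR adjusted p = 8.86e-05). Mlx shares 385 exon bases, 19.3% of its exon length, with Psmc3ip on the opposite strand, which rose from 14.1 to 21.4 CPM (log2 fold change 0.61, edgeR adjusted p = 2.37e-05), and reads of that stretch cannot be told apart without the strand setting.

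Mlxip (chromosome 5, 123394798 to 123457932, plus strand), the glucose-sensing partner, was at 74.1, 62.9, 87.6 and 85.5 CPM in Mock libraries 1 to 4. It was at 100.3, 100.5, 107.9 and 102.2 CPM in GC7 libraries 1 to 4. All GC7 libraries were above all Mock libraries, which were more scattered (log2 fold change 0.41, SE 0.09, edgeR adjusted p = 0.00255). The call rested in part on Mock library 1, without which the log2 fold change was 0.37 (adjusted p = 0.0107). Per kilobase of exon, the ratio of Mlxip to Mlx was 0.40 to 0.61 in Mock libraries and 0.91 to 1.02 in GC7 libraries.

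**Figure D2:**
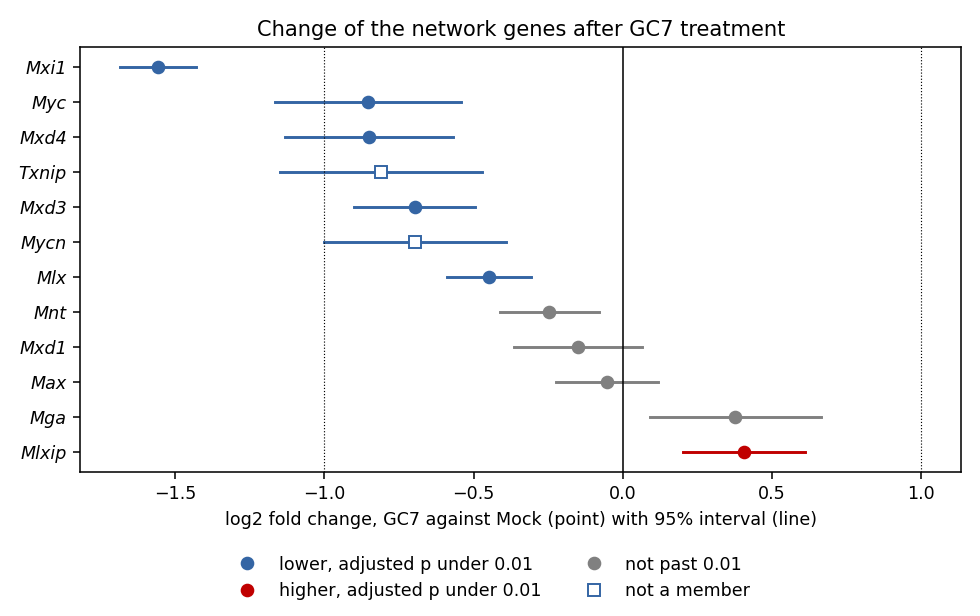
Log2 fold change of GC7 against Mock (horizontal axis, dotted lines at 2-fold) for the 10 network genes (filled circles) and for Mycn and Txnip (open squares), with 95% intervals, in blue for lower, red for higher and grey for an adjusted p of 0.01 or more. Mxi1 at -1.56 is the one network gene beyond 2-fold, Myc and Mxd4 sit near -0.85, and Mlxip at 0.41 and Mga at 0.38 are the genes to the right of 0.

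The order of the network genes by level changed after GC7. On the scale of CPM per kilobase of exon, Myc was first in both groups, at 87.1 ± 5.5 in Mock and 48.2 ± 11.3 in GC7 (SD, n = 4 each). In Mock libraries Mxi1 (19.5), Mxd3 (19.3), Max (18.6) and Mlx (17.8) came next and neighbours among them overlapped, followed by Mnt (10.4) and Mlxip (9.31), which overlapped, and then by Mxd4 (5.52), Mga (4.77) and Mxd1 (3.70), where neighbours overlapped again. In GC7 libraries Max (17.9) was second without overlap, then Mlx (13.1), Mlxip (12.3) and Mxd3 (11.9) with overlapping neighbours, Mnt (8.75), Mxi1 (6.62) overlapping with Mga (6.20), and Mxd1 (3.34) overlapping with Mxd4 (3.07). Mxi1 thus went from second to seventh place and Max moved up to second.

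The summed mRNA of the 7 network genes whose proteins compete for Max (Myc, Mxd1, Mxd3, Mxd4, Mxi1, Mnt and Mga) was 143.8 to 155.5 CPM per kilobase in Mock libraries and 73.6 to 96.5 CPM per kilobase in GC7 libraries. Mycn, which has the same partner but is not a network gene, is left out of this sum and of the shares below. Some Mxd proteins also pair with Mlx, which the sum does not take into account. Max itself was at 18.6 ± 1.0 and 17.9 ± 1.8 CPM per kilobase. Every GC7 library was below every Mock library in this sum, also with Myc left out of it (61.3 to 64.1 in Mock against 38.6 to 41.9 in GC7). The drop without Myc lay mainly in Mxi1 (19.5 to 6.62) and Mxd3 (19.3 to 11.9), and Mxd1, Mnt and Mga did not pass the test. Myc made up 60.0%, 58.8%, 55.9% and 56.9% of the sum in Mock libraries 1 to 4 and 59.7%, 57.0%, 43.1% and 56.4% in GC7 libraries 1 to 4. On this length-scaled measure, the share of Myc lay in the Mock range outside GC7 library 3. The mean of the GC7 group was 54.1% with that library and 57.7% without it. Without scaling by length, the share was 36.5% to 41.3% in Mock libraries. It was then 37.8%, 35.2%, 24.1% and 36.2% in GC7 libraries 1 to 4, so only GC7 library 1 lay in the Mock range. These are shares of mRNA rather than of protein, and no test was run on them. Of the same sum, Myc included, Mxi1 made up 12.5% to 13.6% in Mock libraries and 6.48% to 9.23% in GC7 libraries. Mnt went from 6.05% to 7.80% up to 9.38% to 11.3%, and Mga from 2.18% to 3.64% up to 5.73% to 8.37%. The share of Mnt rose because the sum shrank, as Mnt itself was at 10.4 CPM per kilobase in Mock and 8.75 in GC7. Myc exceeded Mxi1 by 4.12 to 4.64 times in Mock libraries and by 4.67 to 9.21 times in GC7 libraries, where GC7 library 3 gave the lowest value.

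**Figure D3:**
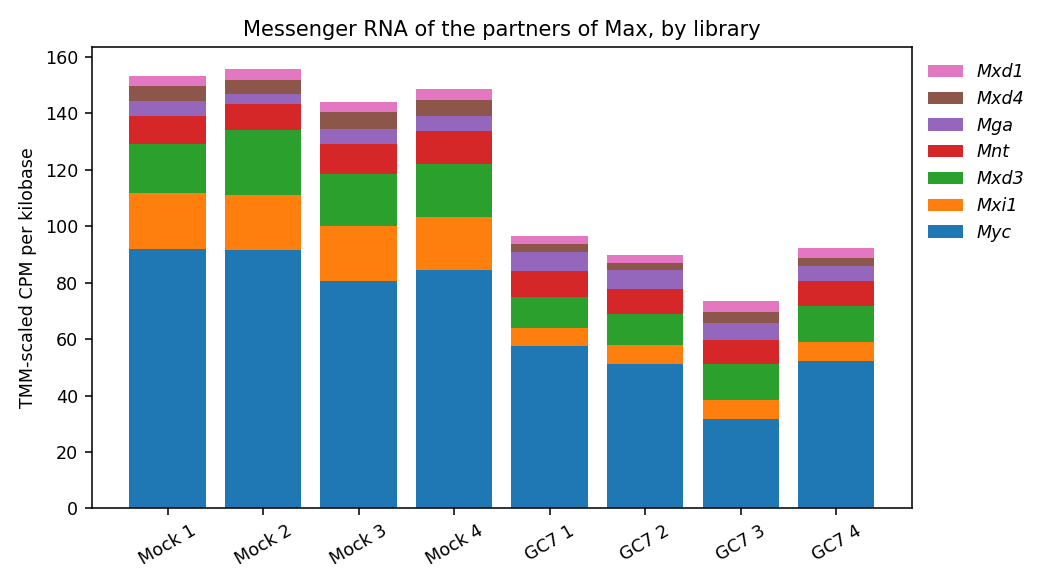
TMM-scaled CPM per kilobase of exon of the 7 network genes whose proteins compete for Max (Mycn is not included), stacked (vertical axis from 0) for each of the 8 libraries. The stacks of the 4 GC7 libraries, at 73.6 to 96.5, are all lower than those of the Mock libraries, at 143.8 to 155.5, and Myc (bottom segment) is the largest segment in every library.

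The genes whose pattern over the 8 libraries was most like that of Myc, by the root mean square difference of log2 CPM after subtracting each gene's Mock mean, were Il2rb (0.087), Apba3 (0.12), Grasp (0.12), Actb (0.13) and Hk2 (0.13) of 10033 genes ranked. Il2rb encodes the beta chain of the IL-2 receptor, Hk2 a hexokinase of glycolysis and Actb a cytoplasmic actin. No other network gene was close to Myc in this measure, the nearest being Mxd3 (0.33, rank 729), whereas Mlxip and Mga were nearer to each other (0.17) than any other pair of network genes. The 8 values of each gene share the same libraries and the same treatment, and no test was made of these distances.

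Of 17 genes listed for ubiquitylation or turnover of the Myc protein, all tested, 4 were lower, 4 were higher and 9 did not pass the test, with a median log2 fold change of -0.09. Each direction thus held 23.5% of the list, about the background of 23.5% lower and 23% higher among all tested genes. Usp28, a deubiquitinase that protects Myc from the Fbxw7 ligase, fell from 70.5 to 26.2 CPM (log2 fold change -1.43, edgeR adjusted p = 5.39e-09). Fbxw7, the substrate receptor of that ligase, rose from 19.0 to 25.0 CPM (log2 fold change 0.40, adjusted p = 4.48e-04). The deubiquitinases Usp36 (0.56, adjusted p = 2.91e-04) and Usp37 (0.45, adjusted p = 4.04e-04) were higher on the log2 scale, as was the ligase subunit Btrc (0.35), while Usp22 (-0.58, adjusted p = 1.96e-05), Trpc4ap (-0.25) and Fbxo28 (-0.26, adjusted p = 0.00898) were lower. Fbxo28 lost the call without Mock library 1, 3 or 4 or GC7 library 2, 3 or 4. The count of lower genes was 2 without Mock library 3 or without GC7 library 2, and 2 with library totals. Of all tested genes, 2262 of 11005, 2277 of 11015 and 2056 of 11189 were lower in these 3 settings.

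Among 18 coactivators that Myc recruits, 4 were lower, 1 was higher and 13 did not pass the test (median log2 fold change -0.09). The lower genes were 22.2% of the list against 23.5% of all tested genes, and the higher gene was 5.56% against 23%. The acetyltransferases Ep300 (log2 fold change -0.58, edgeR adjusted p = 0.00269) and Kat5 (-0.34), the ATPase Ruvbl2 (-0.53) and the elongation kinase Cdk9 (-0.55) fell. Ccnt1, the cyclin partner of Cdk9, rose (0.79, adjusted p = 8.67e-06). Trrap, the scaffold that binds Myc directly, differed by 0.071 on the log2 scale (adjusted p = 0.577), and by -0.043 without Mock library 2. Ep300 was past the threshold with all libraries and not without GC7 library 3 (adjusted p = 0.0107) or GC7 library 4 (adjusted p = 0.0113), and its groups overlapped through Mock library 2, the lowest Mock value at 107.2 CPM against 170.6 CPM in the next.

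Of 18 genes listed as corepressors of the Mxd and Mnt proteins, 17 were tested, of which 7 were lower (41.2%, against 23.5% of all tested genes) and 10 did not pass (median log2 fold change -0.10). The number of higher genes was 0 in edgeR, against 23% of all tested genes. It was 0 in edgeR also at an unadjusted p under 0.05, and 0 in DESeq2 and limma-voom. Sap30 (81.2 to 41.6 CPM, log2 fold change -0.96, edgeR adjusted p = 8.92e-07), Ing2 (-0.79, adjusted p = 3.23e-05) and Ing1 (-0.45, adjusted p = 3.48e-05), all accessory subunits of the Sin3 complex, led, followed by the scaffolds Sin3b (-0.30, adjusted p = 0.00413) and Sin3a (-0.21, adjusted p = 0.00884), the deacetylase Hdac1 (-0.21, adjusted p = 0.00584) and Sap18. Zbtb17, also called Miz1, is counted in this list although it is the factor through which Myc represses genes. It was at 43.4 CPM in Mock and 46.8 CPM in GC7 (log2 fold change 0.11, adjusted p = 0.236). Sin3a lost the call without any 1 library other than Mock library 2, and Sin3b lost it without GC7 library 1, 2 or 4. The count of 7 dropped to 3 with library totals, to 3 without GC7 library 1 or GC7 library 4, and to 4 without Mock library 4, GC7 library 2 or GC7 library 3. Of all tested genes, 2056 of 11189 were lower with library totals. Without GC7 library 1 or 4, 2273 of 11016 and 2272 of 11017 were lower. Without Mock library 4, GC7 library 2 or GC7 library 3, 2196 of 11005, 2277 of 11015 and 2499 of 11015 were lower. The share of 41.2% against 23.5% thus depended on these settings.

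Of 14 genes of the complex of Mga, 6 were higher (42.9%, against 23% of all tested genes), 1 was lower (7.14%, against 23.5%) and 7 did not pass the test (median log2 fold change 0.14). Tfdp1, a dimer partner of E2F proteins, rose from 168.6 to 290.0 CPM (log2 fold change 0.78, edgeR adjusted p = 5.25e-07). Pcgf6 (0.66, adjusted p = 6.01e-06), the subunit that defines this Polycomb complex, and E2f6 (0.64, adjusted p = 1.78e-05), its other DNA-binding factor, rose too, as did L3mbtl2 (0.46, adjusted p = 5.04e-05), Tfdp2 (0.47) and the ubiquitin ligase Rnf2 (0.26). Hdac1, counted here and among the corepressors, was the 1 lower gene, and it lost the call without Mock libraries 1, 3 or 4 or GC7 libraries 1, 3 or 4, each left out alone, which takes that count to 0.

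Among 3 listed targets of Mlx and Mlxip, both tested genes fell, a direction that held 23.5% of all tested genes. Mlxip mRNA rose and Mlx mRNA fell. Txnip, an inhibitor of glucose uptake and the best known MondoA target, was at 222.7 CPM in Mock and 127.2 CPM in GC7 (log2 fold change -0.81, edgeR adjusted p = 7.43e-04). Klf10 fell from 23.3 to 12.8 CPM (-0.87, adjusted p = 2.16e-05). Arrdc4, the other classical target, was too low to test, at 1.27 CPM in Mock and 1.61 CPM in GC7. In a comparison made after the values were seen, Txnip was the second nearest gene to Mxd4 in its pattern over the 8 libraries (root mean square difference 0.088 on the log2 scale).

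Among the listed genes that Myc is known to activate, more were higher than lower after GC7, while Myc mRNA fell. Many genes of this list act in ribosome production, and the counts were not split by function. Of 66 listed genes, all tested, 9 were lower (13.6%, against 23.5% of all tested genes), 31 were higher (47.0%, against 23%) and 26 did not pass the test, with a median log2 fold change of 0.28 against 0.02 over all tested genes. The 3 largest increases were Utp20 (31.9 to 72.6 CPM, log2 fold change 1.19, edgeR adjusted p = 9.73e-07) and Gnl3 (59.4 to 119.6 CPM, 1.01, adjusted p = 1.51e-06), which act in the nucleolus, and Ndufaf4 (10.5 to 20.6 CPM, 0.97, adjusted p = 1.66e-06), an assembly factor of mitochondrial complex I. Ldha, the lactate dehydrogenase of glycolysis (3819 to 1508 CPM, log2 fold change -1.34, adjusted p = 2.08e-06), the phosphatase gene Dusp2 (106.5 to 54.5 CPM, -0.97, adjusted p = 2.92e-06) and Hk2 (200.7 to 117.4 CPM, -0.77, adjusted p = 7.03e-04) fell most. So the list held genes that moved strongly in both directions, and 1 of its decreases and 2 of its increases exceeded 2-fold.

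Several of the best known Myc targets were higher rather than lower. Odc1, the rate-limiting enzyme of polyamine synthesis, rose from 329.0 to 539.7 CPM (log2 fold change 0.71, edgeR adjusted p = 6.99e-07) and Ccnd2, the D-type cyclin of lymphocytes, rose from 187.3 to 319.0 CPM (0.77, adjusted p = 2.05e-05). The nucleolar genes Npm1 (0.32, adjusted p = 0.00271) and Ncl (0.23, adjusted p = 0.00971) rose by less. Npm1 lost the call without Mock library 1, 3 or 4, and Ncl lost it without any 1 library other than Mock library 2 and GC7 library 3. Cad, which starts pyrimidine synthesis, missed the threshold (0.38, adjusted p = 0.011) and passed it without Mock library 1 (adjusted p = 0.00631) or GC7 library 3 (adjusted p = 0.00294). Cdk4 did not pass it (-0.15, adjusted p = 0.0964). Tfap4, a transcription factor that prolongs the Myc programme in CD8+ T cells, fell from 36.7 to 27.5 CPM (-0.41, adjusted p = 2.50e-04).

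Genes with and without an E-box in the promoter window were found in both directions. Of the 58 Myc-activated genes with a window, 17 (29.3%) held CACGTG, against 12.2% of tested genes, and of these 17 genes 4 were lower and 6 were higher. Among the 41 without it 4 were lower and 21 were higher. Of all 8331 tested genes with a window, 1019 held it, and of these 242 were lower and 225 were higher. Among the tested genes whose windows lacked it, 1719 were lower and 1676 were higher. The median log2 fold change of the Myc-activated genes was 0.22 with the letters and 0.30 without them, which were not tested against each other.

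Of 16 genes listed as repressed by Myc, 9 were tested, of which 5 were lower (55.6%, against 23.5% of all tested genes), 1 was higher (11.1%, against 23%) and 3 did not pass the test (median log2 fold change -0.46). Ndrg1 fell from 371.7 to 45.9 CPM (log2 fold change -3.02, edgeR adjusted p = 3.70e-11), Ndrg2 from 92.7 to 27.1 CPM (-1.78, adjusted p = 7.72e-10) and Gadd45g from 75.9 to 30.1 CPM (-1.33, adjusted p = 2.38e-06). Ndrg1 is also a classical hypoxia gene. The cell cycle inhibitors split, as Cdkn1a, which is also a p53 target, rose from 265.8 to 552.7 CPM (1.06, adjusted p = 4.36e-08) while Cdkn1b fell from 116.2 to 84.6 CPM (-0.46, adjusted p = 5.54e-05). The count of higher genes was 2 without Mock library 2 or GC7 library 2, where 2784 of 11013 and 2092 of 11015 tested genes were higher.

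**Figure D4:**
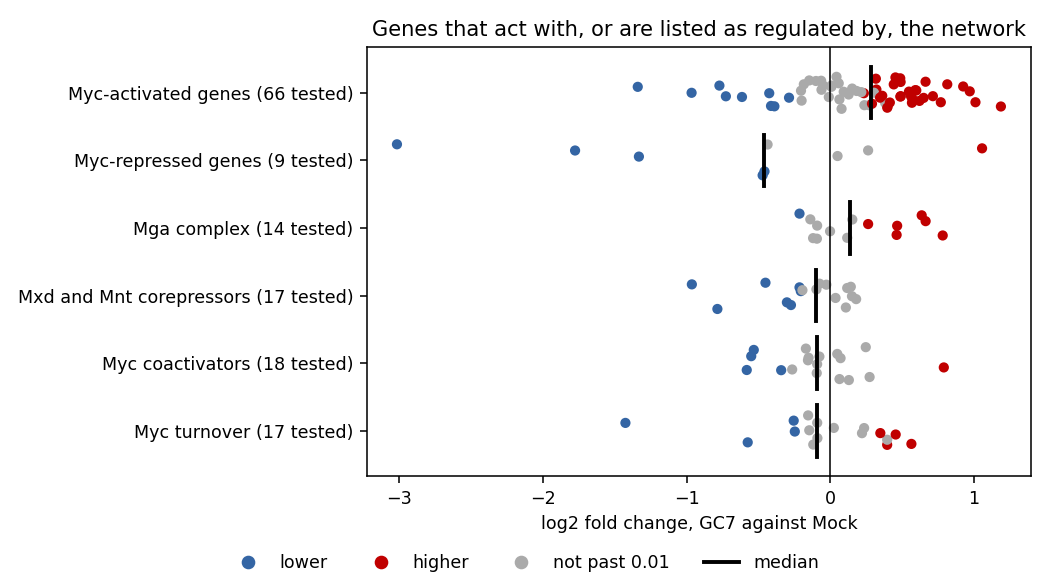
Log2 fold change of GC7 against Mock (horizontal axis) for each tested gene of 6 lists (rows, points spread vertically for legibility), in blue for lower, red for higher and grey for an adjusted p of 0.01 or more, with the list median as a black bar. The 66 Myc-activated genes spread from -1.34 to 1.19 around a median of 0.28, and the 9 Myc-repressed genes have a median of -0.46 with Ndrg1 at -3.02.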

How the data were processed

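Paired-end reads were trimmed with Cutadapt, aligned to GRCm38 with STAR and counted per Ensembl gene with featureCounts by the authors, who deposited raw counts, 1 table per library, not normalised and not pooled. The strand setting and the handling of reads with several positions are not given in the sources used here. Groups came from the sample labels.

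Genes above 3 CPM in at least 4 of 8 libraries were tested with edgeR (version 4.0.16, R version 4.3.3), the tool the study names, with settings chosen here: TMM factors, group as the only term, quasi-likelihood F test, Benjamini-Hochberg adjustment over 11189 genes. The filter corresponds to 52.6 to 75.9 counts. Adjusted p under 0.01 counted as changed. The edgeR (with and without block, and with RLE factors), DESeq2 and limma-voom fits were run on simulated data. In these, all genes had a common spread, few genes changed and no library stood apart. The simulation therefore does not cover the many changed genes or the outlying libraries of the real data. Lengths are merged exons of the Ensembl annotation of the files' build. Near copies were sought with BLAST (version 2.17.0; at least 200 bases, at least 90% identity). Outlying libraries were sought with Dixon's ratio (critical value 0.829). Figures used matplotlib (version 3.10.9) in Python (version 3.11.15).

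The network genes and all gene lists were chosen with earlier results of these data known. Named are the network genes, 20 fixed genes, from each list the 3 largest changes in each direction past the threshold, and the 5 genes most like Myc; Trpc4ap, Btrc, Kat5, Sap18, Tfdp2 and Rnf2, genes named for overlapping or marker roles, and the pair Mxd4 and Txnip were added after their values were seen. Ddit3, listed as repressed, had more than 1 identifier and was left out. Alternatives were RLE factors, library totals, no filter, filterByExpr, DESeq2 (version 1.42.0), limma-voom (limma version 3.58.1), the replicate number as a block, each library left out, and, chosen after seeing the data, Mock library 2 and GC7 library 3 left out together. Protein sequences were not analysed here.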

Additional observations from a re-analysis of the deposited data

Results flagged for a closer look

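No network gene had a library flagged as far from the other 3 of its group, the closest being GC7 library 3, which was the lowest of its group for Max (ratio 0.754) and for Myc (0.752). The ratio is the gap between the highest or lowest library and its nearest neighbour, divided by the range of the group, and a library was flagged above the critical value for 4 libraries. Over the network genes and the genes named by rule from the lists, 11 of 110 groups did so, where chance alone gives about 5.5. These groups share the same 8 libraries, and genes named after their values were seen were not among them.

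Mock library 2 was the lowest of its group for Usp22 (ratio 0.938, 75.2 CPM against 88.0 CPM in the nearest library), for Trrap (0.831, 130.3 against 178.6 CPM), for Ep300 (0.904, 107.2 against 170.6 CPM) and for Utp20 (0.866, 25.8 against 33.6 CPM). It was the highest for Cdk9 (0.833, 129.1 against 109.7 CPM), for Ing2 (0.851, 55.2 against 44.2 CPM) and for Gadd45g (0.833, 99.3 against 71.6 CPM). GC7 library 3 was the lowest of its group for Ruvbl2 (0.865, 83.7 against 111.1 CPM), for Ncl (0.844, 1494 against 1637 CPM) and for Odc1 (0.955, 511.6 against 548.2 CPM). GC7 library 2 was the lowest for Dusp2 (0.831, 47.0 against 56.4 CPM).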

How the results depend on the processing

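Of 160 values of the network genes under the alternatives, 152 kept their direction and their side of the threshold, and Myc, Mxd3, Mxd4, Mxi1 and Mlx were lower under each alternative run. Ranges in this paragraph and the next cover each library left out and, chosen after seeing the data, Mock library 2 and GC7 library 3 left out together. Max changed sign with library totals (0.043) and ranged from -0.089 to 0.057. Mnt passed the threshold with DESeq2 (-0.25) and ranged from -0.30 to -0.20, Mga passed it with no filter (0.38), and Mlxip ranged from 0.29 to 0.46. Without a filter 2 network genes were higher (0 to 1 with libraries left out), as were 3335 of the 28350 genes then tested.

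With library totals 2 turnover genes (range 2 to 4), 3 corepressors (3 to 9) and 0 genes of the Mga complex (0 to 1) were lower, the last also 0 with no filter and with the replicate block. Higher were 2 coactivators with no filter (1 to 3), and 2 Myc-repressed genes with library totals, no filter and DESeq2 (1 to 2). Trrap was at -0.043 without Mock library 2 and ranged up to 0.11. Without scaling by length, Myc made up 38.8% of the partners' mRNA in Mock and 33.3% in GC7. For the other 43 named genes, 630 of 688 values were kept. The causes were not tested.

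The replicate numbers were not shown to pair the libraries, as deviations of same-numbered libraries correlated at -0.18 to 0.27 and 4 of 8 libraries correlated best with their own number. With the replicate block, 2485 genes were lower and 2382 higher, the same 6 network genes were called in the same direction, Fbxo28, Sin3a, Hdac1 and Ncl did not pass (adjusted p = 0.0102 to 0.0222 in edgeR), and Cad passed (0.00877).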
